A study of Mus musculus with 26 samples.

Results

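The comparison described here is that of lacrimal glands at 12 weeks of age with lacrimal glands at 8 weeks, in a mouse strain that develops a disease resembling Sjögren's syndrome. It takes 12 of the 26 arrays of the series, 6 at each age, chosen by the age in the sample titles. The series also holds 4 arrays at 4 weeks and 5 each at 16 and 20 weeks. Total RNA was measured on Affymetrix 3′ expression arrays with 45101 probe sets, 1 array per sample. All animals were male C57BL/6.NOD-Aec1Aec2 mice with no treatment named, and age is the only difference between the groups that the labels give. This strain carries NOD-derived Idd3 (Aec1, chromosome 3) and Idd5 (Aec2, chromosome 1) intervals on the non-autoimmune C57BL/6 background. No C57BL/6 animals of matching age were analysed here, so a difference between the ages cannot be assigned to the strain. The submitters place 8 weeks in the early pre-clinical phase and 12 weeks at the time when leukocytes first enter the gland. The arrays are labelled as biological replicates, but whether each holds 1 animal or a pool is not given. The p-values thus measure only the spread between arrays, and those of single genes use the spread over all 26 arrays of the series.

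The lacrimal gland secretes the watery layer of the tear film. Its acinar cells drive fluid secretion through chloride uptake at the basolateral membrane, calcium-activated chloride and potassium channels, and aquaporin water channels, and they release stored protein by exocytosis. Plasma cells in the gland's interstitium make dimeric immunoglobulin A, which the polymeric immunoglobulin receptor carries across the epithelium into tears. In Sjögren's syndrome, B and T lymphocytes gather in foci around ducts and vessels, and interferon-stimulated genes are often raised.

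Values are the deposited log2 expression levels, so a difference of 1 is a 2-fold difference on the scale of the array. They carry no reference in absolute units, and levels are not compared between genes. Genes chosen as a check of the tissue were high on all 12 arrays. Whether they set lacrimal apart from salivary gland was not tested. Car6, a secreted carbonic anhydrase, lay between 13.53 and 14.50, Pip, a secreted tear protein, between 14.78 and 15.17, the water channel Aqp5 between 10.29 and 11.42, and the acinar transcription factor Bhlha15 between 11.74 and 12.81. A gene was taken as near background where its mean was under 4.04 at an age, which is 1 log2 unit above the median of the arrays' own medians (3.04). A difference from such a mean is only a bound, which among the genes below applies to Mug1, Msln, AI467606, Ighm, Ms4a1, Nfil3 and Cdk1 at 8 weeks, to Timp3, Bik, Usp18, Rsad2, Per1, Fos and Hspa1a at 12 weeks, and to Blnk, Ltb, Lat and Adipoq at both ages. It also applies at both ages to Fads3, Ighg3, Ms4a2, Cpa3, Tpsb2, Arntl, Nr1d1, Bhlhe40, Nampt, Per3, Csnk1e and Wdsub1. The 12 arrays had medians of 2.94 to 3.07 and correlated with others of their age at 0.968 to 0.986. Measures of RNA integrity differed between the ages. The 3′ minus 5′ log2 difference of the actin control probe sets was 2.63 ± 0.50 (SD, n = 6) at 8 weeks and 3.69 ± 0.52 (n = 6) at 12 weeks (exact permutation test, two-sided, p = 0.002165, the smallest that 6 against 6 can give, Benjamini-Hochberg adjusted over 3 measures 0.006494). That of Gapdh was 1.15 ± 0.23 (n = 6) and 1.80 ± 0.41 (n = 6) (exact permutation test, two-sided, p = 0.004329, adjusted 0.006494). Transcripts of neighbouring tissue also varied. The mean level of 10 salivary gland genes ran from 5.49 to 10.65 at 8 weeks and from 8.00 to 11.88 at 12 weeks, and that of 4 adipose genes reached 6.32 on replicate 1 at 12 weeks against 3.33 to 3.91 at 8 weeks. The comparison was also fitted with the actin difference as a covariate, and with the adipose and salivary levels as covariates. In either fit limma called no gene. The actin difference was at most 3.11 at 8 weeks and at least 3.26 at 12 weeks. As it did not overlap between the ages, RNA integrity and age cannot be told apart by such a fit.

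Of 12376 genes tested, 2 passed an adjusted p under 0.05 (limma, Benjamini-Hochberg over all genes tested), which is 0.0162% of them. Fads2b rose, 1 gene or 0.00808% of those tested, and Galnt11 fell, likewise 0.00808%. At an unadjusted p under 0.05 there were 614 genes, or 4.96% of those tested, of which 422 were higher at 12 weeks (3.41%) and 192 lower (1.55%), a share of 68.7% higher. Under quantile normalization 332 of 615 such genes, 54.0%, were higher, and with median centring 68.0%. The share was 53.9% without replicate 6 at 8 weeks and 79.5% without replicate 1 at 8 weeks. It was 55.2% with the adipose and salivary covariates. This split thus varied with the processing and with single arrays. The 6 arrays of one age lay entirely outside the range of the 6 of the other for 55 genes (0.444%), with 37 higher at 12 weeks (0.299%) and 18 lower (0.145%). The median difference over all genes tested was 0.02, and 7048 of the 12376 were higher at 12 weeks. Counts of higher and lower genes in the lists below are to be read beside these values.

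**Figure D1:**
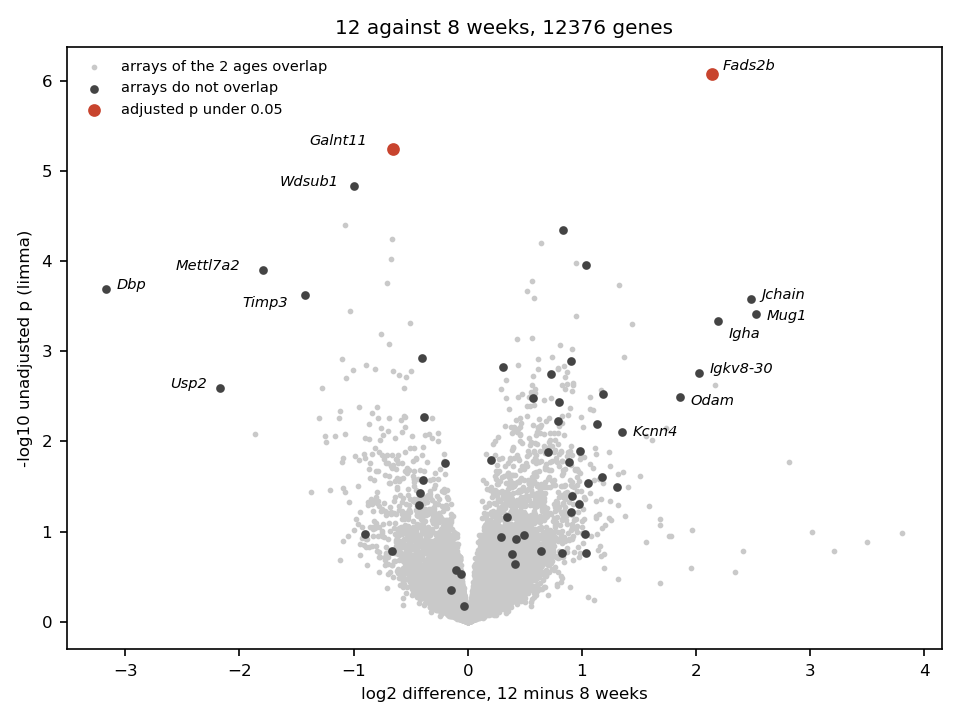
Each point is 1 of 12376 genes, with the log2 difference of 12 minus 8 weeks on the horizontal axis and the negative log10 of the unadjusted limma p on the vertical axis. The 2 genes with an adjusted p under 0.05 are in red and the other genes whose arrays did not overlap between the ages in dark grey; Dbp lies far to the left and Jchain, Mug1 and Igha far to the right without passing the adjustment.

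Fads2b encodes a member of the fatty acid desaturase family, enzymes that place double bonds in fatty acyl chains. Its level was 5.32, 6.01 and 6.16 (lowest, median and highest of 6 arrays) at 8 weeks and 7.37, 7.77 and 9.21 at 12 weeks. The ages did not overlap, and the lowest 12-week array exceeded the highest 8-week array by more than the whole range of the 8-week arrays. The gene rose by 2.14 ± 0.32 on the log2 scale (SE, n = 6 against 6), 4.41-fold, with an adjusted p of 0.0105 (limma). In the other ages the means were 6.74 ± 0.85 (SD, n = 4) at 4 weeks, 7.67 ± 0.34 (n = 5) at 16 weeks and 7.34 ± 0.56 (n = 5) at 20 weeks, so the 8-week mean was the lowest of the 5 ages. The difference was 2.02 with the actin covariate (adjusted p = 0.112, limma) and 2.06 with the adipose and salivary covariates (adjusted p = 0.0792), so both kept its size but not its call. Fads3 was the only other gene of the family among those tested, near background at both ages, with a difference of 0.04.

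Galnt11 encodes one of the enzymes that start mucin-type O-glycosylation by adding N-acetylgalactosamine to serine or threonine. At 8 weeks its lowest, median and highest levels were 4.55, 4.70 and 4.96, and at 12 weeks 3.69, 3.95 and 4.52. The ages did not overlap, but the gap was narrow and 3 of the 12-week arrays lay under 4.04, the near-background limit. It fell by 0.65 ± 0.11 on the log2 scale (SE, n = 6 against 6), to 0.635 of its 8-week level, with an adjusted p of 0.0357 (limma). The call held in 12 of 26 alternative analyses, over which the adjusted p ran from 0.00189 to 0.326. With the actin covariate the difference was -0.66 (adjusted p = 0.112, limma), and with the adipose and salivary covariates -0.69 (adjusted p = 0.0792), so neither kept the call. At 4, 16 and 20 weeks the mean was 3.89, 3.82 and 3.95, so only the 8-week mean stood well clear of the near-background limit. A second probe set for the gene was near background at both ages and differed by -0.06. Of 8 further Galnt genes tested, 7 were above background at one age or both, and their differences ran from -0.42 to 0.54, the highest being that of Galnt4 at 0.54 ± 0.37, and none had an unadjusted limma p below 0.158. Galnt4 was 0.35 without replicate 3 at 8 weeks. These values are of 1 probe set per gene, and other probe sets of the same genes gave lower ones: -1.85 for Galnt2 (from 5.76 to 3.91), -1.03 for Galnt7 (from 8.32 to 7.29) and -0.60 for Galnt10 (from 5.35 to 4.74). The probe sets of Galnt2 (-0.06, -1.85 and -0.20) and Galnt7 (-0.42, -1.03 and -1.16) were all lower at 12 weeks but differed in size. Those of Galnt10 (0.05, -0.60 and 0.32) differed in direction. The last value given for each gene is of a probe set near background at both ages. Over the 16 tested genes of mucin-type O-glycosylation the median difference was 0.03.

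Antibody transcripts gave the highest differences among the immune genes. Jchain encodes the joining chain that links immunoglobulin A monomers into dimers. It was 4.42, 5.59 and 6.93 (lowest, median, highest) at 8 weeks and 7.46, 7.86 and 8.93 at 12 weeks, a difference of 2.48 ± 0.57 (5.58-fold, adjusted p = 0.171, limma). Igha, the heavy chain constant region of immunoglobulin A, was 8.49, 9.22 and 10.40 at 8 weeks and 10.95, 11.73 and 11.94 at 12 weeks, a difference of 2.19 ± 0.54 (adjusted p = 0.248). All 6 arrays at 12 weeks exceeded all 6 at 8 weeks for both genes, and the remaining probe sets of Igha differed by 2.60 and 2.64. Igkv8-30, a kappa light chain variable segment whose probe set can detect related segments, was 5.85, 6.71 and 7.65 at 8 weeks and 8.00, 8.91 and 9.29 at 12 weeks. Its difference of 2.03 ± 0.57 (adjusted p = 0.434) also came without overlap. None of these 3 genes passed the adjusted threshold. With the actin covariate the differences were 3.05 for Jchain, 2.68 for Igha and 2.71 for Igkv8-30 (adjusted p = 0.112, 0.198 and 0.186, limma). In bulk tissue, more plasma cells and more transcript per plasma cell cannot be told apart.

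The mean of Jchain over the 5 ages, from 4 to 20 weeks, was 3.55, 5.57, 8.05, 8.28 and 8.37, and that of Igha 6.23, 9.41, 11.60, 10.95 and 11.36. Both were already higher at 8 than at 4 weeks, and neither had a mean at 16 or 20 weeks that differed from that at 12 weeks by more than the SD of the older arrays (0.54 and 1.93 for Jchain, 1.24 and 1.38 for Igha). Single low arrays lowered those means and widened those SDs. Jchain was 5.35 on replicate 1 at 20 weeks against 8.08 to 10.49 on the others of that age. Igha was 8.84 on replicate 4 at 16 weeks against 10.99 to 11.95 on the others. Other members of the antibody and plasma cell list moved less. Pigr, the receptor that carries immunoglobulin A across the epithelium, was higher by 0.59 ± 0.40. Derl3 and Xbp1, which serve protein export in secretory cells and are also expressed by acinar cells, differed by 0.27 ± 0.68 and 0.18 ± 0.78, and the plasma cell surface proteoglycan Sdc1, also epithelial, by 0.21 ± 0.42. Ighm, the immunoglobulin M heavy chain, differed by 0.44 ± 0.45, and its level of 5.47 on replicate 4 at 12 weeks was the highest of the 12 arrays. Without that array the difference was 0.17. Its remaining probe sets gave differences from -0.04 to 2.31. Ighg3, an immunoglobulin G heavy chain, was near background at both ages (-0.17 ± 0.12). In all, 8 of the 20 listed genes were tested, 7 were higher at 12 weeks, 2 had an unadjusted p under 0.05, none passed the adjusted threshold in limma and the median difference was 0.35. The mean level of the 8 genes was 8.03 ± 0.24 (SD, n = 6) at 8 weeks and 8.80 ± 0.18 (n = 6) at 12 weeks.

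**Figure D2:**
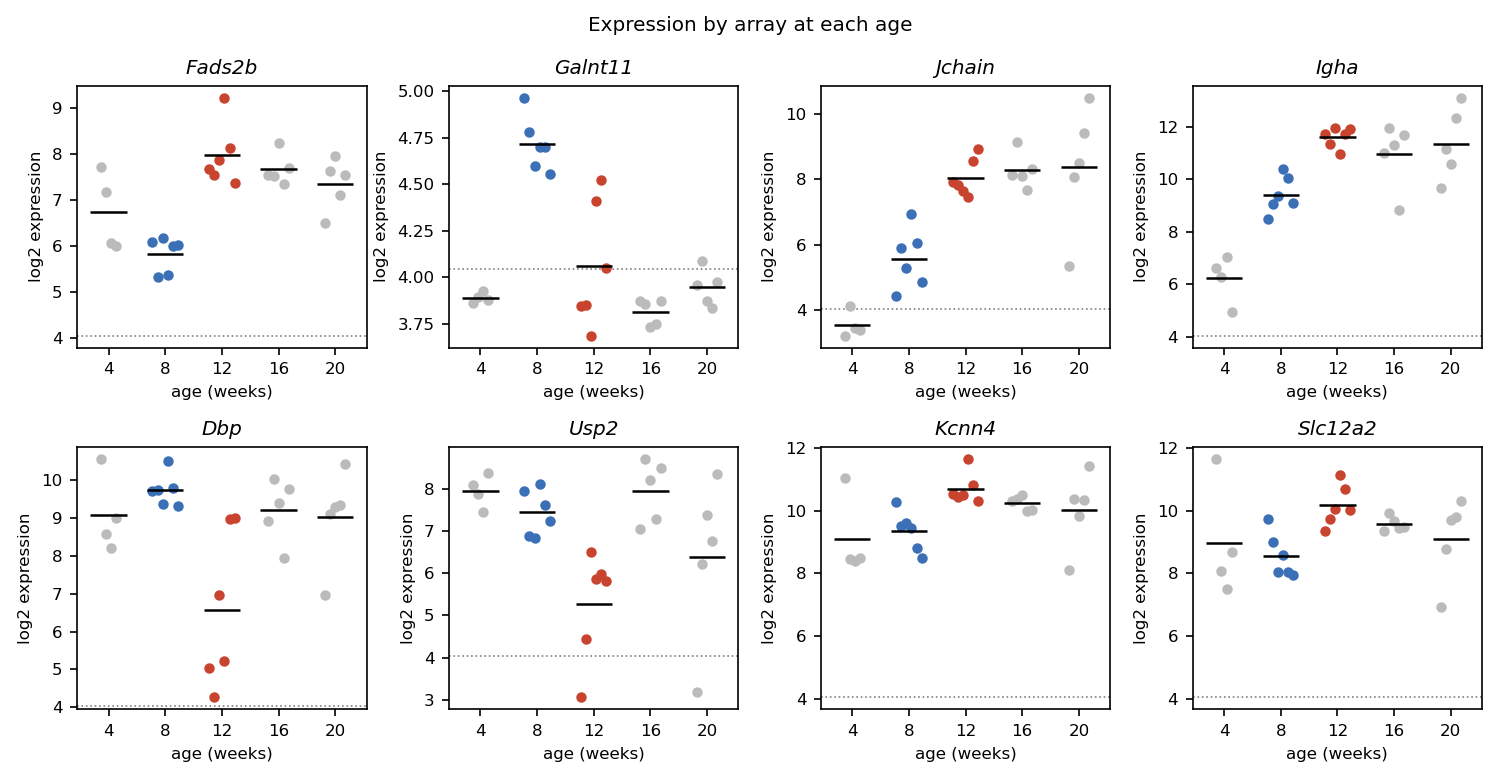
Log2 expression by array (points) and mean per age (black bars) for 8 genes at 4, 8, 12, 16 and 20 weeks (n = 4, 6, 6, 5 and 5); the dotted line is the near-background limit of 4.04. Fads2b, Jchain, Igha, Kcnn4 and Slc12a2 have higher means at 12 than at 8 weeks, and Galnt11, Dbp and Usp2 lower ones; the 12-week arrays of Dbp run from 4.26 to 9.02.

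Transcripts of lymphocytes themselves were at or near background on nearly all arrays at both ages. For T cells, 18 of 21 listed genes had a probe set and 8 were tested, none of them above background in its mean at either age, and their median difference was -0.003. Lat, an adaptor of T cell receptor signalling also found in other leukocytes, was 5.72 on replicate 4 at 12 weeks and 2.83 to 3.88 on the 5 others of that age, against 2.91 to 3.79 at 8 weeks. Its difference of 0.47 ± 0.33 was 0.06 without that array. The T cell list's mean level was 3.13 to 3.37 at 8 weeks and 3.08 to 3.56 at 12 weeks, so the ages overlapped. The 2 tested genes of cytotoxic and natural killer cells were also near background. In limma 0 of these 10 genes passed the adjusted threshold and 0 had an unadjusted p under 0.05.

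B cell genes set 1 array apart. The list's mean level was 3.37 to 3.73 at 8 weeks, 3.58 to 3.87 on 5 arrays at 12 weeks and 5.38 on the sixth, replicate 4. Ms4a1, which encodes the B cell surface protein CD20, was 3.92 to 4.13 at 8 weeks and 3.94 to 4.56 on those 5 arrays, against 7.02 on replicate 4. Blnk, an adaptor of B cell receptor signalling, was 2.59, 2.62 and 2.66 at 8 weeks and 2.61, 3.19 and 4.23 at 12 weeks, a difference of 0.64 ± 0.21 (adjusted p = 0.656, limma). All 5 tested B cell genes were higher at 12 weeks, 2 of them above background, with a median difference of 0.40 that became 0.16 without replicate 4. Limma called none of the 5 and 1 had an unadjusted p under 0.05.

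The same replicate stood highest for genes of lymphoid organisation. Ltb, the lymphotoxin beta subunit that shapes lymphoid tissue, was 2.70 to 2.97 at 8 weeks, and at 12 weeks it ran from 2.81 to 3.31 on 5 arrays and was 6.58 on replicate 4. Cxcl13, the chemokine that draws B cells into follicles, was 5.06 to 5.85 at 8 weeks and 5.71 to 5.84 on 5 arrays at 12 weeks, and 6.77 on replicate 4. Ptprc, the pan-leukocyte antigen CD45, was 4.87, 5.75 and 6.65 at 8 weeks and 5.26, 6.64 and 8.67 at 12 weeks. Its highest value was again replicate 4, and its difference of 0.96 ± 0.56 (adjusted p = 1, limma) was 0.58 without that array. Without it Ms4a1 differed by 0.23, Ltb by 0.18 and Cxcl13 by 0.11. Jchain and Igha had their lowest 12-week values on this array, 7.46 and 10.95. Igkv8-30 was 9.27 there, the second highest of its 12 values.

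**Figure D3:**
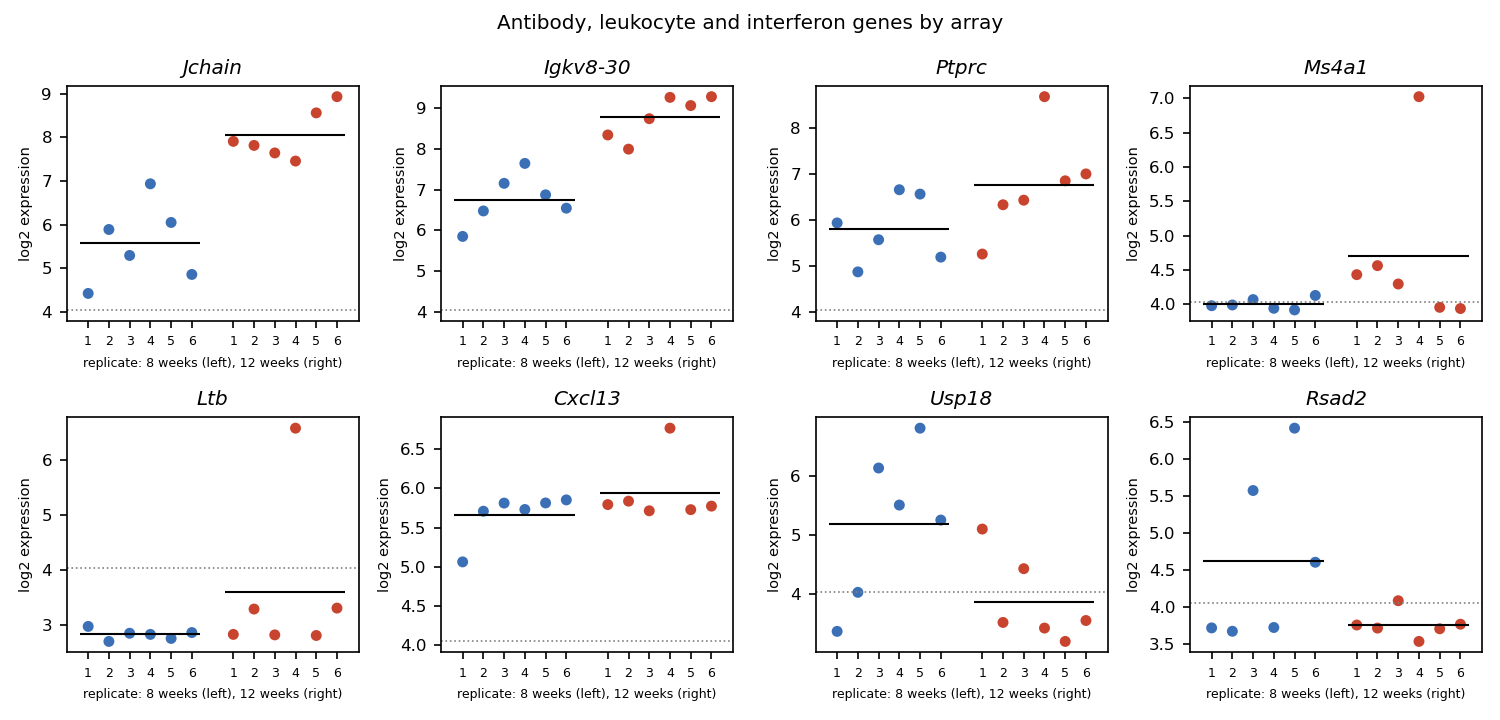
Log2 expression on each of the 6 arrays at 8 weeks (blue, left) and 12 weeks (red, right) for 8 antibody, leukocyte and interferon genes, with the mean of each age as a black bar and the near-background limit of 4.04 as a dotted line where it is in range. Jchain and Igkv8-30 do not overlap between the ages, Ms4a1, Ltb and Cxcl13 are high on replicate 4 at 12 weeks only, and Usp18 and Rsad2 reach 6.80 and 6.42 on replicate 5 at 8 weeks.

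Of 18 tested macrophage and pan-myeloid genes, 15 were above background, and 5 were higher and 13 lower at 12 weeks. The median difference was -0.13, or 0.25 with the actin covariate, and the list's mean level was 6.54 ± 0.42 (SD, n = 6) at 8 weeks and 6.51 ± 0.27 (n = 6) at 12 weeks. The 6 tested genes of antigen presentation by MHC class II were all higher at 12 weeks, with a median of 0.37. H2-Aa, a class II alpha chain, was 10.56, 11.30 and 11.59 at 8 weeks and 11.49, 11.90 and 12.29 at 12 weeks, a difference of 0.73 ± 0.58 (adjusted p = 1, limma). Probe sets disagreed for H2-Ab1, a class II beta chain, at 0.36 for the one used and -0.32 and -1.15 for the others. The list's median was 1.02 with the actin covariate and -0.05 with the adipose and salivary covariates. The 9 MHC class I genes had a median of 0.01. Kit, the receptor of mast cells and also of some epithelial cells, was 4.63, 4.86 and 5.43 at 8 weeks and 4.82, 5.51 and 6.79 at 12 weeks. Its difference was 0.81 ± 0.35 (adjusted p = 0.906, limma), with the ages overlapping, and its second probe set differed by -0.02. The other tested mast cell genes, Ms4a2, Cpa3 and Tpsb2, were near background and differed by -0.08, -0.09 and 0.03. The median of the mast cell list was -0.025. Of 14 tested genes of lymphoid chemokines and adhesion, 8 were higher, with a median of 0.10 that became -0.004 without replicate 4 at 12 weeks. Cxcl12, a stromal chemokine that attracts lymphocytes and plasma cells, differed by 0.54 ± 0.31, and Cxcl10, an interferon-induced chemokine of T cells, by -0.51 ± 0.26, or -0.28 without replicate 5 at 8 weeks. Limma called none of these genes at the adjusted threshold, and Kit, 1 of 4 mast cell genes tested, was the only one of these 5 lists with an unadjusted p under 0.05.

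Genes of the circadian clock gave the 2 lowest differences among all genes tested. In the clock, the activators Clock and Arntl (BMAL1) switch on the Per and Cry repressors and the output regulators Dbp and Tef through E-boxes, Nr1d1 and Nr1d2 repress Arntl through ROR elements, and Nfil3 opposes Dbp and Tef at D-boxes. The sequences before the start sites of Per1, Tef, Arntl and Dbp are shown with letter matches to such elements. They are the 250 bases before the RefSeq start on the GRCm38.p6 assembly, read 5′ to 3′ on the gene's strand, which is the plus strand for all 4: chr11:69098699-69098948 for Per1, chr15:81802423-81802672 for Tef, chr7:113207215-113207464 for Arntl and chr7:45704997-45705246 for Dbp. Capitals mark an E-box (CACGTG) in Per1 and Tef and matches to TNGGTCA in Arntl, where N is any base. That pattern is looser than the ROR element, as it takes any base at N, so a match need not be one. The stretches marked in Arntl read TTGGTCA and TCGGTCA. Whether either is a working ROR element was not tested. Per1, Tef and Arntl have further starts in RefSeq, of which the most upstream is shown.
Per1: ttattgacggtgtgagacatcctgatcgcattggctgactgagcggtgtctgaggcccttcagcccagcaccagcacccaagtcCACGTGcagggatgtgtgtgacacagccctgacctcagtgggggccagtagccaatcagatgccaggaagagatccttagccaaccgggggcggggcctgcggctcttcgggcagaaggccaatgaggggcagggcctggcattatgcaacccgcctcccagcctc
Tef: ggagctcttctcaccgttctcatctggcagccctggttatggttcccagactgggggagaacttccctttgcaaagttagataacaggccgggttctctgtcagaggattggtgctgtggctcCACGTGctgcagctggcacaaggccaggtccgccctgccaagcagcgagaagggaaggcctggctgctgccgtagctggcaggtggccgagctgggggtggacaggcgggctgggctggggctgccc
Arntl: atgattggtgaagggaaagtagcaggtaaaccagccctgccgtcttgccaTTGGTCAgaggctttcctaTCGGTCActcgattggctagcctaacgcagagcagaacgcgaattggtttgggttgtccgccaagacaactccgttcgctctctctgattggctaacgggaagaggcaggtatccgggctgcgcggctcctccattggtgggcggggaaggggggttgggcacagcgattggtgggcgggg
Dbp: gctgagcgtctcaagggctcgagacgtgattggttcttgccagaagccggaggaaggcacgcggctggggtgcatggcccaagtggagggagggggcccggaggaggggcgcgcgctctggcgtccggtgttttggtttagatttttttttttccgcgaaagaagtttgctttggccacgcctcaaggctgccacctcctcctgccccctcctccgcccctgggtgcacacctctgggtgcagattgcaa
The E-box lies at -166 from the start in Per1 and at -127 in Tef, and the matches to TNGGTCA at -200 and -181 in Arntl. The window of Dbp holds none of the 3 patterns searched. These were the E-box, the loose pattern TNGGTCA and the D-box (TTANGTAA), each on both strands. Of 32851 such windows in RefSeq, 6.02% held the E-box, 9.19% TNGGTCA and 2.06% the D-box. Among 18 clock genes with a window, the E-box was in 4 (Per1, Cry1, Tef and Ciart). TNGGTCA was in 5 (Arntl, Per3, Cry2, Nfil3 and Tef) and the D-box in 1 (Per3). Over all 27025 genes with a window the shares were 6.86%, 10.5% and 2.44%. A match is only a match of letters.

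Dbp encodes a PAR bZIP transcription factor with one of the strongest daily rhythms in many tissues. At 8 weeks it lay between 9.31 and 10.51, with a median of 9.74. At 12 weeks the 6 arrays were at 5.03, 4.26, 6.96, 5.23, 8.99 and 9.02 for replicates 1 to 6, all below the 8-week range. These arrays were widely spread, with replicates 5 and 6 just under the 8-week values and replicate 2 close to the near-background limit. The mean differed by -3.17 ± 0.72 (adjusted p = 0.168, limma), and the gene's second probe set differed by -2.89. The difference was -3.12 with the actin covariate and -3.15 with the adipose and salivary covariates. At 4, 16 and 20 weeks the mean of Dbp was 9.09 ± 1.03 (SD, n = 4), 9.22 ± 0.83 (n = 5) and 9.04 ± 1.27 (n = 5), so the 12-week mean of 6.58 ± 2.07 was the lowest of the 5 ages.

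Usp2, a rhythmic ubiquitin-specific protease, was the other clock gene without overlap. It was 6.83, 7.44 and 8.13 (lowest, median, highest) at 8 weeks and 3.06, 5.83 and 6.50 at 12 weeks, a difference of -2.17 ± 0.64 (adjusted p = 0.470, limma), with -1.23 at its second probe set. Tef was 8.61, 9.17 and 9.54 at 8 weeks and 6.73, 8.20 and 9.37 at 12 weeks (-0.98 ± 0.52), and Nr1d2 was 8.72, 9.87 and 10.47 and then 7.68, 8.82 and 10.03 (-0.89 ± 0.73). Both overlapped between the ages, and both were lowest on replicates 1 and 2 at 12 weeks, where Dbp and Usp2 were also lowest.

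The repressors of the loop were lower in mean as well. Cry2 was 6.58, 7.62 and 8.26 at 8 weeks and 6.47, 6.67 and 7.30 at 12 weeks (-0.80 ± 0.25, adjusted p = 0.570, limma). Per2 was 4.54, 4.81 and 5.60 and then 3.92, 4.31 and 4.61 (-0.64 ± 0.23, adjusted p = 0.689). Per1 was 3.84, 4.13 and 4.79 and then 3.63, 3.81 and 3.88 (-0.39 ± 0.14, adjusted p = 0.754), with its 12-week mean near background. All of these overlapped between the ages. Among the activators, Clock differed by 0.64 ± 0.49, from 0.36 without replicate 3 at 8 weeks to 0.97 without replicate 1 at 12 weeks, and Arntl by 0.27 ± 0.09 (adjusted p = 0.687) with both means near background. Nr1d1, a repressor of Arntl, was near background at both ages (-0.63 ± 0.45). Nfil3 differed by 0.65 ± 0.34, and its level of 4.66 on replicate 1 at 8 weeks stood above the 3.16 to 3.25 of the 5 others. Its highest value was 5.78 on replicate 4 at 12 weeks, without which the difference was 0.31.

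Of 22 clock genes tested, 5 were higher and 17 lower at 12 weeks, and limma called none. At an unadjusted p under 0.05, 5 genes were lower and 1 was higher. Among all genes tested, 7048 of 12376 were higher, and 1.55% were lower with an unadjusted p under 0.05. The median difference of the clock list was -0.23, and it lay between -0.38 and -0.15 in 26 alternative analyses, beside 0.02 over all genes tested. The 11 clock genes not described above had differences from -0.49 for Bhlhe40 (-0.19 without replicate 1 at 8 weeks) to 0.20 for Rora, with a smallest unadjusted limma p of 0.141. Bhlhe40 was near background at both ages. These values are of 1 probe set per gene. Other probe sets of the same genes reached 1.03 for Csnk1d (from 6.67 to 7.70) and 0.64 for Rora, and -0.80 for Tsc22d3 (from 5.36 to 4.56) and -0.64 for Per3. Of the 14 clock genes above background, 7 were below all 8-week values on each of replicates 1, 2 and 6 at 12 weeks, 5 on replicates 4 and 5, and 4 on replicate 3. Of all 7320 tested genes above background, the share below all 8-week values was 32%, 20.2%, 10.5%, 9.55%, 8.52% and 8.39% on replicates 1 to 6, so the clock count on replicate 1 stands beside a high share for all genes. On replicates 3, 4 and 5, 2, 3 and 2 of the 14 were above all 8-week values, where the share of all genes was 21.7%, 28.2% and 27.5%. No source used here states the time of day at which glands were taken, and its part in the result was not tested.

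**Figure D4:**
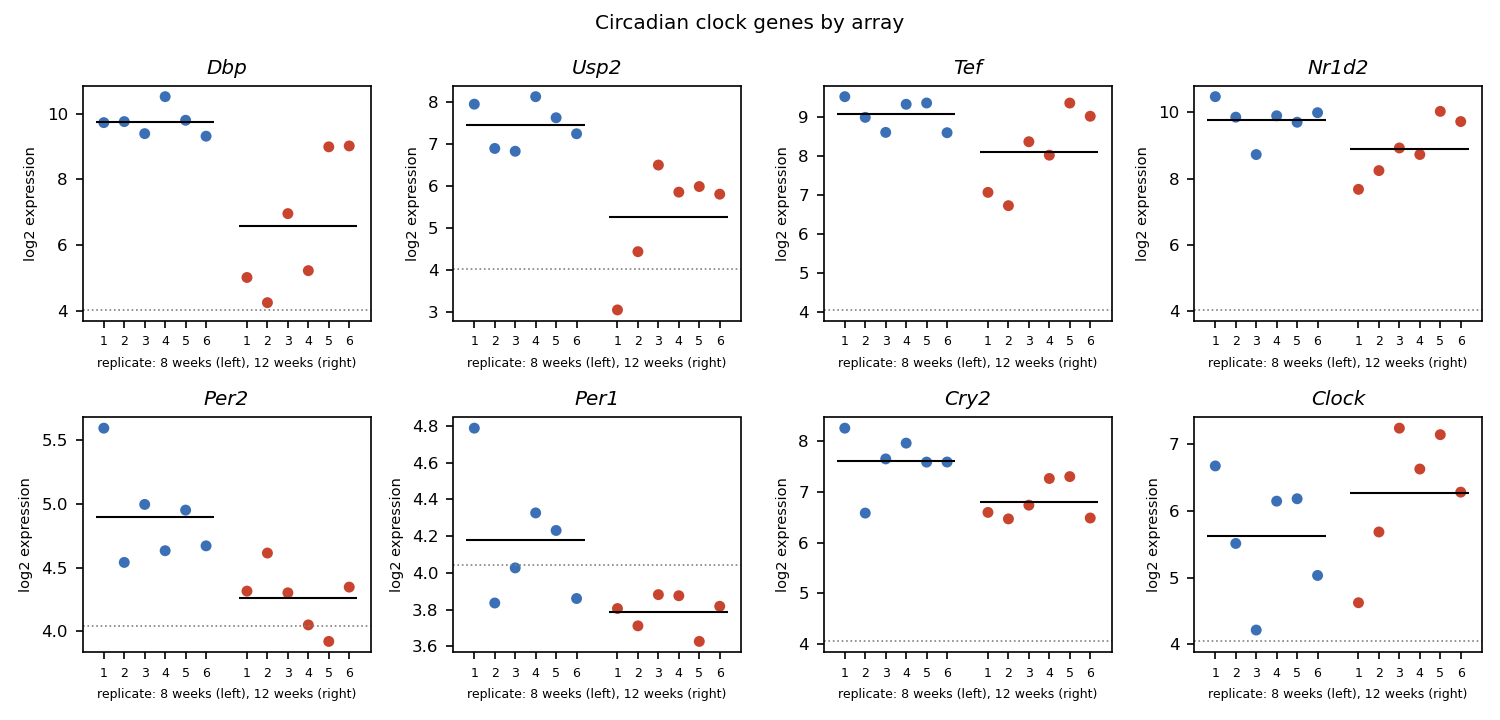
Log2 expression of 8 clock genes on each of the 6 arrays at 8 weeks (blue, left) and 12 weeks (red, right), with the mean of each age as a black bar and the near-background limit of 4.04 as a dotted line. Dbp and Usp2 do not overlap between the ages, the other 6 do, and replicates 1 and 2 at 12 weeks are the lowest for Dbp, Usp2, Tef and Nr1d2.

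Genes induced by type I interferon were lower at 12 weeks in mean, with values at 8 weeks that differed widely between glands. Of 20 tested, 4 were higher and 16 lower, 2 lower genes had an unadjusted p under 0.05 and limma called none, and the median difference was -0.29. Usp18, which removes the ubiquitin-like modifier ISG15 and restrains interferon signalling, was 3.37, 5.38 and 6.80 at 8 weeks and 3.20, 3.54 and 5.10 at 12 weeks (-1.31 ± 0.43, adjusted p = 0.624, limma). Rsad2 (viperin), an antiviral enzyme, was 3.67, 4.16 and 6.42 and then 3.53, 3.73 and 4.08 (-0.86 ± 0.36, adjusted p = 0.882). Replicates 3 and 5 at 8 weeks were the highest arrays for both genes, and without replicate 5, whose list level was 6.20 against 4.66 to 5.64 on the 5 others, the median of the list was -0.086 and Rsad2 differed by -0.50. Irf9, the DNA-binding part of the complex that type I interferon activates, differed by -0.67 ± 0.34. Genes mainly induced by interferon gamma did not share that direction. Of 8 tested, 6 were higher, with a median of 0.21. Irf1, a transcription factor it induces, was 5.96, 6.11 and 6.64 at 8 weeks and 6.25, 6.84 and 7.37 at 12 weeks (0.60 ± 0.23, adjusted p = 0.764). The guanylate-binding protein Gbp2 differed by 0.89 ± 0.56. Limma called none of the 8, and 1 had an unadjusted p under 0.05.

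Lists of stress-responsive genes had medians near or below that of all genes. Hspa1a and Hspa1b encode near-identical inducible HSP70 proteins, so their probe sets may share signal. Hspa1a was 3.59, 4.76 and 6.23 at 8 weeks and 3.22, 3.39 and 4.29 at 12 weeks (-1.25 ± 0.43, adjusted p = 0.672, limma), and Hspa1b differed by -0.73 ± 0.54, or -0.41 without replicate 5 at 8 weeks. Of 18 heat shock genes tested, 6 were higher, 1 lower gene had an unadjusted p under 0.05 and the median was -0.21. The immediate early transcription factor Fos was 3.18, 4.59 and 5.55 at 8 weeks and 3.17, 3.45 and 4.23 at 12 weeks (-1.01 ± 0.28, adjusted p = 0.429), and Ier3 differed by -0.79 ± 0.37, or -0.48 without replicate 1 at 8 weeks. Over 21 immediate early genes the median was -0.03. The sensor of the unfolded protein response Ern1 was 8.05, 8.60 and 9.50 and then 9.08, 9.38 and 9.85 (0.73 ± 0.29, adjusted p = 0.830), in a list of 19 genes with a median of 0.03. In these 3 lists limma called no gene, and 5 had an unadjusted p under 0.05, 3 of them lower.

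Of 23 lacrimal acinar and secretory genes tested, 17 were higher and 6 lower at 12 weeks, limma called none, 4 of the higher genes had an unadjusted p under 0.05 and the median was 0.23. Among all genes tested, 7048 of 12376 were higher, and 3.41% were higher with an unadjusted p under 0.05. Slc12a2 encodes the sodium-potassium-chloride cotransporter that loads the acinar cell with chloride. It was 7.93, 8.32 and 9.73 at 8 weeks and 9.34, 10.04 and 11.16 at 12 weeks, a difference of 1.62 ± 0.57 (3.07-fold, adjusted p = 0.705, limma), with the ages overlapping only through replicate 1 at 8 weeks. Its further probe sets differed less, by 0.64 and 0.86. Kcnn4, the calcium-activated potassium channel that maintains the driving force for secretion, was 8.50, 9.49 and 10.28 and then 10.32, 10.52 and 11.64. It did not overlap (1.35 ± 0.46, adjusted p = 0.669), and its second probe set differed by 0.65. Ano1, the calcium-activated chloride channel of the apical membrane, was 7.65, 7.90 and 8.43 at 8 weeks and 8.53, 8.95 and 9.42 at 12 weeks, again without overlap (0.97 ± 0.47, adjusted p = 1), but its second probe set differed by only 0.20. None of these 3 genes passed the adjusted threshold. Sox10, a transcription factor of the acinar lineage, differed by 0.67 ± 0.25 (adjusted p = 0.764).

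Aqp5 differed by 0.39 ± 0.73, Car6 by 0.50 ± 0.29, Pip by 0.08 ± 0.25 and Bhlha15 by 0.21 ± 0.65. Rab3d, a small GTPase of secretory granules, was 9.89, 10.12 and 10.20 at 8 weeks and 8.96, 9.44 and 9.82 at 12 weeks without overlap (-0.67 ± 0.46, adjusted p = 1, limma), but its 3 further probe sets differed by 0.02, -0.17 and 0.05. With the adipose and salivary covariates the median of the list was 0.06, and Slc12a2, Kcnn4 and Ano1 differed by 1.27, 0.94 and 0.68. Salivary acini share these transporters, and salivary transcripts were present at both ages. Smr3a, a submandibular gland protein, was 4.72, 10.20 and 13.40 at 8 weeks and 8.04, 13.03 and 14.50 at 12 weeks (3.01 ± 1.77), and Cst10, a salivary cystatin, was 2.06, 6.36 and 11.64 and then 2.77, 10.67 and 13.70 (3.50 ± 2.23), both with an adjusted p of 1 (limma). Of 10 salivary genes tested 9 were higher, with a median of 1.68.

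Fatty acid genes other than Fads2b were higher in mean without passing the test. Of 16 genes of fatty acid synthesis and desaturation tested, 14 were higher, beside 7048 of 12376 among all genes. The median of the list was 0.32, and Fads2b was its only gene with an unadjusted p under 0.05. Srebf1, the transcription factor that drives fatty acid synthesis, was 6.04, 6.93 and 7.75 at 8 weeks and 7.05, 8.45 and 9.08 at 12 weeks (1.38 ± 0.72, adjusted p = 1, limma). Scd1, the stearoyl-CoA desaturase, was 10.62, 11.30 and 11.86 and then 11.67, 11.84 and 12.77 (0.76 ± 0.44). Acaca, the acetyl-CoA carboxylase of the first committed step, was 4.93, 5.61 and 5.86 and then 5.64, 6.00 and 9.24 (1.01 ± 0.54). Its highest value was on replicate 1 at 12 weeks, and the difference was 0.47 without that array. The same array had the highest adipose transcripts, with Adipoq (adiponectin) at 7.95 against 2.11 to 2.29 at 8 weeks and Fabp4, the adipocyte fatty acid binding protein, at 10.84 against 5.02 to 7.10. Fads2b on that array was 7.67, inside the range of the 5 others at 12 weeks. The 12 tested genes of cholesterol synthesis had a median of 0.08.

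Of 28 cell cycle genes tested, 24 were higher at 12 weeks and 3 had an unadjusted p under 0.05, limma called none, and the median was 0.12. Among all genes tested, 7048 of 12376 were higher, and 3.41% were higher with an unadjusted p under 0.05. Mcm7, a subunit of the replicative helicase, was 3.97, 4.83 and 6.52 at 8 weeks and 5.93, 6.68 and 8.53 at 12 weeks (2.17 ± 0.63, adjusted p = 0.467, limma), with its 3 further probe sets at 0.78, 0.77 and 0.22. Mcm5, another subunit, was 4.56, 4.62 and 6.71 and then 5.04, 6.24 and 7.66 (1.24 ± 0.46, adjusted p = 0.764), and the mitotic kinase Cdk1 was 2.98, 3.67 and 5.52 and then 3.19, 5.56 and 6.15 (1.19 ± 0.51, adjusted p = 0.889). Replicate 1 was the highest of the 8-week arrays for all 3 genes and made the ages overlap for Mcm7 and Mcm5. Rrm2, a ribonucleotide reductase subunit, differed by 0.84 ± 0.43.

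Among the other genes whose arrays did not overlap between the ages, Mug1, a murinoglobulin that traps proteases, was 3.18, 3.41 and 3.92 at 8 weeks and 4.21, 6.06 and 7.89 at 12 weeks (2.53 ± 0.61, adjusted p = 0.229, limma), and its mean was 2.75 at 4 weeks, 7.53 at 16 and 6.95 at 20 weeks. At 20 weeks Mug1 was 3.31 on replicate 1 and 7.40 to 8.13 on the others. Odam, a secreted epithelial protein first described in enamel-forming cells, was 4.96, 5.24 and 5.86 and then 6.28, 6.81 and 8.31 (1.86 ± 0.56, adjusted p = 0.494). Both genes had means at 16 and 20 weeks above those at 4 and 8 weeks, as Jchain and Igha did. Msln (mesothelin) differed by 1.30, the Elongator subunit Elp2 by 1.19, AI467606 by 1.17, the myelin enzyme Cnp by 1.13 and Fam241a by 1.05. Msln and AI467606 were near background at 8 weeks, with means of 3.25 and 3.17 against 4.55 and 4.35 at 12 weeks. AI467606 rested on replicate 4 at 12 weeks, at 7.34, and was 0.58 without it. Other probe sets gave -0.15 for Elp2, 0.19 and -0.02 for Cnp, 0.30 for AI467606 and 0.62 for Fam241a. The gap between the ages was very narrow for Elp2, whose highest 8-week array was 8.8168 and lowest 12-week array 8.8171. It was also narrow for Fam241a (8.09 and 8.12), AI467606 (3.27 and 3.29) and Msln (3.40 and 3.46). For AI467606 and Msln these values lay under the near-background limit.

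In the lower direction, Mettl7a2, a methyltransferase-like protein, was 5.98, 6.41 and 7.27 at 8 weeks and 4.34, 4.55 and 5.21 at 12 weeks (-1.79 ± 0.39, adjusted p = 0.143, limma). Timp3, an inhibitor of matrix metalloproteinases, was 3.98, 4.66 and 5.71 and then 2.75, 3.35 and 3.91 (-1.43 ± 0.33, adjusted p = 0.171), with its 12-week mean near background. Its mean was 5.63 at 4 weeks, 4.04 at 16 and 3.54 at 20 weeks. Its further probe sets differed less between 8 and 12 weeks, by -0.27, -0.50 and -0.06. With the actin covariate Mettl7a2 differed by -1.41 and Timp3 by -1.21. Gm14743 differed by -0.90, the acetyltransferase-like Nat14 by -0.43, the endosomal exchange factor Rabgef1 by -0.42, the pro-apoptotic Bik by -0.38, the Polycomb inhibitor Ezhip by -0.20 and the zinc finger protein Zfp787 by -0.10, all without overlap. Apart from Gm14743 the gaps were very narrow. The lowest 8-week and highest 12-week arrays were 4.54 and 4.53 for Nat14, 5.31 and 5.30 for Rabgef1, and 4.023 and 4.019 for Bik. They were 4.319 and 4.314 for Ezhip and 4.33 and 4.31 for Zfp787. Further probe sets differed by 0.52 and -0.02 for Rabgef1 and by 0.18 and -0.10 for Bik. Wdsub1, chosen after its values were seen because its unadjusted p was the third smallest, differed by -0.99 ± 0.18 (adjusted p = 0.0607) with both means near background.

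Structural genes had small differences. Of 15 extracellular matrix genes tested, 3 were higher and the median was -0.12. Sparc, a collagen-binding matrix protein, was 8.85, 9.57 and 10.11 at 8 weeks and 8.42, 8.77 and 8.95 at 12 weeks (-0.82 ± 0.46, adjusted p = 1, limma), and fibronectin (Fn1) differed by -0.50 ± 0.33, or -0.26 without replicate 1 at 8 weeks and -0.25 without replicate 1 at 12 weeks. Krt8, a keratin of simple epithelia, differed by 0.53 ± 0.32 in a duct and myoepithelial list of 10 genes with a median of 0.07. The 5 endothelial genes had a median of -0.11, the 6 skeletal muscle genes -0.03, and the 14 apoptosis genes 0.07. Of 16 candidate genes of the Idd3 and Idd5 intervals, 8 were tested, 3 of them above background, with a median of 0.01. No gene in these 6 lists was called by limma or had an unadjusted p under 0.05.

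**Figure D5:**
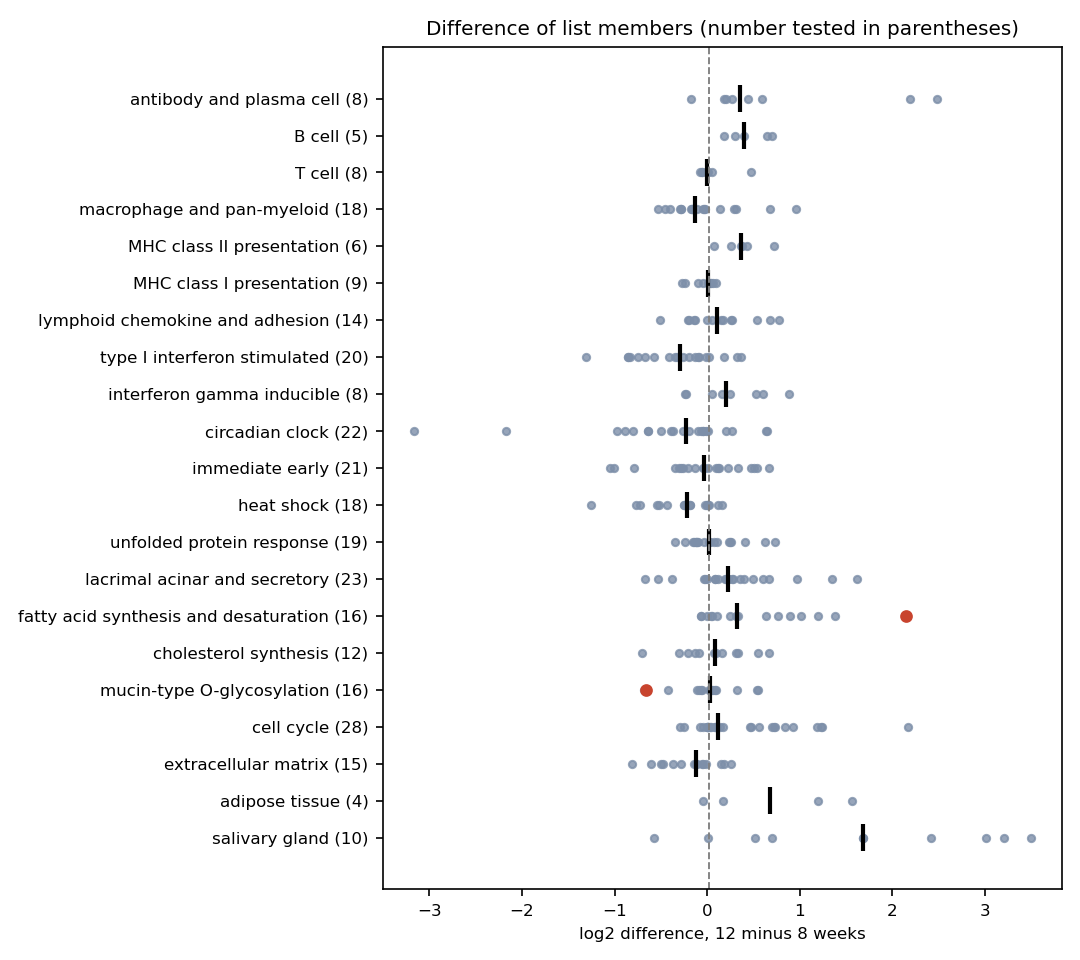
Each point is a tested gene of a list, placed at its log2 difference of 12 minus 8 weeks, with the number tested after the list's name, the list's median as a black bar and the median of all genes tested (0.02) as a dashed line. Red points are Fads2b and Galnt11; the salivary list has the highest median (1.68), and the clock and type I interferon lists have medians of -0.23 and -0.29.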

How the data were processed

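The deposited table holds log2 values, 1 column per array, made by the authors; the submitters' processing notes list RMA and GCRMA, with no version and no role. Scan dates and batches are not given in the sources used here. Of 45101 probe sets, 64 controls were left out, 34945 named 1 gene symbol, 932 several and 9160 none in the platform annotation. 34741 were matched to RefSeq by Entrez ID, with 0 symbols altered. Each of 18193 genes took its probe set with the highest mean, and 12376 genes above their array's median on at least 4 arrays were tested.

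A mean per age was fitted over all 26 arrays with limma 3.58.1 (lmFit, eBayes) in R 4.3.3, so the other ages add to the estimate of the spread. A wide spread at another age can thus enlarge the SE. Xbp1, with an SE of 0.78, had an SD of 0.25 at 8 weeks, 0.10 at 12 weeks and 2.94 at 16 weeks. The contrast was 12 minus 8 weeks, with Benjamini-Hochberg adjustment over all genes tested and a threshold of 0.05. The log2 differences carry the SE of that fit. Exact permutation tests used scipy 1.17.1. On simulated data with 12376 genes, 55% of 100 genes changed by 1 log2 unit and 85% of 100 changed by 2 were found, with 5 false calls. Whether these shares hold for the measured arrays was not tested. On those arrays Dbp, at -3.17 (adjusted p = 0.168, limma), and Jchain, at 2.48 (adjusted p = 0.171), were not called. Few arrays limit the precision.

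The gene lists and the rule for named genes were chosen with earlier results of these data known. Named were the called genes, the 12 highest and 12 lowest non-overlapping genes not near background at both ages, all tested clock and antibody genes, up to 4 genes per other list by smallest p, and the Fads and Galnt families with tissue markers. Of the genes this rule gives, those described with their own values were picked after the values were seen. The motif windows and Wdsub1 were also chosen after that. Gene names of arrays can be old.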

Additional observations from a re-analysis of the deposited data

Results flagged for a closer look

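A test for 1 array far from the other 5 of its age was run on 248 sets of values, and 18 stood out, where chance gives about 1 in 20. Replicate 4 at 12 weeks accounted for 7 of them, all high: Ms4a1 at 7.02, Ltb at 6.58, Cxcl13 at 6.77, Lat at 5.725, AI467606 at 7.34, the B cell list at 5.38 and the lymphoid chemokine and adhesion list at 5.105. Without this array the median difference of the B cell list was 0.16 in place of 0.40. Its salivary list level of 11.88 and its adipose list level of 4.66 were the highest and the second highest at 12 weeks, and their part in the result was not tested. Replicate 1 at 12 weeks was high for Acaca (9.245) and low for Aqp5 (10.92), on the array with the highest adipose level.

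Replicate 1 at 8 weeks was high for Nfil3 (4.658), Mcm5 (6.711) and the cell cycle list (5.556) and low for Cxcl13 (5.06). Without that array Mcm7 differed between the ages by 2.50, Mcm5 by 1.59 and Cdk1 by 1.51 (adjusted p = 0.193, 0.231 and 0.373, limma). Replicate 5 at 8 weeks was high for Gbp2 (7.646) and Kit (5.428), and it also had the highest type I interferon list level of the 12 arrays (6.20). Further single values were AI467606 at 2.827 on replicate 6 at 8 weeks, Bik at 3.507 on replicate 3 at 12 weeks and Ighg3 at 3.57 on replicate 3 at 8 weeks, each of them near background.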

How the results depend on the processing

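The 2 calls became 8 with quantile normalization, 1 with median centring, 1 with a stricter filter (the upper quartile), 10 with the mean of probe sets, 4 without cross-hybridising probe sets (_x_at, _s_at), 142 with array weights (whose fit stopped before it converged), 4 with only the 12 arrays, and 8 without the 2 arrays of 16 and 20 weeks that stand apart. There were 0 with the actin covariate and 0 with the adipose and salivary covariates, and 21 with each array's spread as a covariate, which was added after the data were seen. Leaving out 1 array gave 1 to 7 (7 without replicate 1 at 12 weeks, 5 without replicate 4, and 1 without replicates 1, 3 or 5 at 8 weeks or 3 or 6 at 12 weeks). Replicate numbers did not pair the arrays: same-number correlations ran from -0.48 to 0.10, 1 of 6 over 0.1, and no array correlated best with its own number. With a replicate block, 1 gene was called and Fads2b had an adjusted p of 0.0669 (limma).

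Fads2b was called in 23 of 26 alternatives and Galnt11 in 12. Gained calls included Dbp in 5 (adjusted p from 0.0108 to 0.48 over all), Jchain in 4 (0.00824 to 0.460) and Igha in 3 (0.0117 to 0.564). Over 93 genes and their alternatives, 2366 of 2398 differences kept their direction and 81 genes were never reversed. The reversed values were Elp2 -0.15 and Bik 0.18 without cross-hybridising probe sets, Rabgef1 0.028, Bhlha15 -0.35 and Tsc22d3 -0.17 with the mean of probe sets, Xbp1 -0.20, Fabp4 -0.24, Aqp5 -0.029, Bhlha15 -0.066 and Csnk1e 0.044 with the adipose and salivary covariates, Pip -0.12 and Tsc22d3 -0.055 with quantile normalization, Nampt 0.069 with the actin covariate, Per3 0.069 with array weights, and Xbp1 -0.019, Csnk1e 0.0074 and Tsc22d3 -0.049 with array spread. Leaving out 1 array at a time gave both signs for Nampt (-0.26 to 0.041), Per3 (-0.17 to 0.096), Csnk1e (-0.050 to 0.014) and Tsc22d3 (-0.18 to 0.25).

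List medians moved by more than the spread between arrays in 12 cases. With the actin covariate they were 0.84 for antibody, 0.25 for macrophage, 1.02 for MHC class II, 0.44 for MHC class I and 0.40 for unfolded protein response genes. With the adipose and salivary covariates MHC class II was -0.054. The stricter filter, which leaves fewer genes, gave 0.81 for mast cell, 0.63 for cell cycle, -0.23 for skeletal muscle, 0.27 for skin and 0.12 for Idd genes, and no filter gave -0.019 for red blood cell genes. Genes near background have only a bound on their change.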
